A study of Mus musculus with 6 samples.

Results

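The 10 genes described here encode the machinery that shows peptides on MHC class I molecules, and their RNA was compared between regulatory T cells with and without a T cell deletion of the splicing factor Srsf1. They were taken by gene name, from a set drawn up with earlier results of these data known: the heavy chains H2-K1, H2-D1, H2-Q4, H2-T23 and H2-M3, the light chain B2m, the peptide transporter Tap1 and Tap2, the loading factor Tapbp and the regulator Nlrc5. All 10 were among the 24982 gene symbols counted, and all 10 passed the filter on low counts that left 11772 genes for testing. The wild-type group (WT) and the knockout group (KO, Srsf1-flox/flox with dLck.Cre) had 3 libraries each, from B6.129 mice aged 8 to 10 weeks, and the study gives 3 mice per genotype. The distal Lck promoter drives Cre in T cells, so the deletion is not limited to regulatory T cells. Whether WT mice carried Cre or floxed alleles is not given in the sources used here. In both groups splenic CD4+CD25+CD127lo natural regulatory T cells (nTreg cells) were sorted by flow cytometry. They were then kept for 72 h with anti-CD3 at 2 µg/ml, anti-CD28 at 2 µg/ml and rIL-2 at 10 ng/ml, so every value is from stimulated cells. One label field names Th0 effector CD4 T cells instead, whereas titles and protocols name nTreg cells.

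MHC class I molecules carry fragments of proteins made inside the cell to its surface, where CD8 T cells and NK cells read them. A heavy chain pairs with B2m in the endoplasmic reticulum, the Tap1 and Tap2 transporter brings peptides in from the cytosol, and Tapbp (tapasin) holds the empty heavy chain at the transporter until a peptide binds. Nlrc5 is drawn to the conserved promoter boxes of class I genes and raises their transcription, and interferon and NF-kappa B signals act on the same promoters. T cells express class I molecules at high levels.

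The promoters of H2-K1, H2-D1, H2-Q4 and B2m are shown because these genes include the abundant classical heavy chains, the heavy chain with the smallest p-value and the light chain that all heavy chains share. Each window runs from 250 bases before to 50 bases after the start given by RefSeq on build GRCm38.p6, written 5′ to 3′ on the gene's strand. The windows are chr17:34000298-34000597 on the minus strand for H2-K1, chr17:35262844-35263143 on the plus strand for H2-D1, chr17:35379367-35379666 on the plus strand for H2-Q4 and chr2:122147437-122147736 on the plus strand for B2m. Capitals mark matches, on either strand, to CCAAT (the Y box core), TGACGC (the X2 box core), GGGATTCCC (a kappa B site) or GAAANNGAA (the core of an interferon-stimulated response element).
H2-K1: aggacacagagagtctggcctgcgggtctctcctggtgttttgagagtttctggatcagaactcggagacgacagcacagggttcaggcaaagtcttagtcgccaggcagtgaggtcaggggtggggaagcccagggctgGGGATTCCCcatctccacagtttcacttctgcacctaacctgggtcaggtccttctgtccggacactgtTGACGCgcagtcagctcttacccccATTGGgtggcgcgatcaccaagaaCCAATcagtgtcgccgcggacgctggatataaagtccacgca
H2-D1: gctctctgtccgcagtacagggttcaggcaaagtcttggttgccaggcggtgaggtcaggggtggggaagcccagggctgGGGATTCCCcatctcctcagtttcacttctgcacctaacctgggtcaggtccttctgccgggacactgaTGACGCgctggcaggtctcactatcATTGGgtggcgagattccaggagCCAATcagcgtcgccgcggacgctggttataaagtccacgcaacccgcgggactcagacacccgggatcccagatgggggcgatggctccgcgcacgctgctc
H2-Q4: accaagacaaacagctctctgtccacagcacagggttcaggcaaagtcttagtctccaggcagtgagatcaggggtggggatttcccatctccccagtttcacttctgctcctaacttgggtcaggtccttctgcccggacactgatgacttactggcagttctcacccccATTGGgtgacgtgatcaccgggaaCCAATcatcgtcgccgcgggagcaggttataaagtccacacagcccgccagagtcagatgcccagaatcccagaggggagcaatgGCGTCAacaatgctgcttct
B2m: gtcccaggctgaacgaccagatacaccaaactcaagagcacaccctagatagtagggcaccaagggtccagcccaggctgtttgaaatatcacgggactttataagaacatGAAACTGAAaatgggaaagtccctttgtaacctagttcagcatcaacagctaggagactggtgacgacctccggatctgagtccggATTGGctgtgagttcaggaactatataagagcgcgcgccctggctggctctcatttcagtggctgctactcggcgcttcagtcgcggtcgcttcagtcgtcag

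These letters describe the windows and show no binding. CCAAT was present in 8 of the 8 members with a promoter in the table, against 37.4% of all 32851 promoters. TGACGC was present in H2-K1, H2-D1, H2-Q4 and H2-M3, against 7.40% of promoters, and in H2-Q4 its only match lies after the start. In H2-K1 the CCAAT match on the same strand, at base 259 of the window, also lies after the start. GGGATTCCC was found in H2-K1 and H2-D1, against 0.353% of promoters. GAAANNGAA was found in H2-T23 and B2m, against 8.56% of promoters, and TTCNNNGAA (the GAS element of STAT factors, not capitalised) in H2-M3 only among the members, against 8.30%. Only these fixed letters were searched, so a window without a match was not shown to lack the element. None of the matched motifs overlap one another in the printed windows. H2-K1 has a pair of windows in the table, of which the one listed first was used. Tap2 and Nlrc5 have none there. All members but B2m (chromosome 2) and Nlrc5 (chromosome 8) lie on chromosome 17, and Tap1 and Tap2 stand there beside the immunoproteasome genes Psmb8 and Psmb9.

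Depth was 10183626 to 27562046 counts, lower in each KO library than in any of WT. One library, KO replicate 1, differed from the rest: across genes the r of its log2 values with another library was 0.90 to 0.93, whereas pairs of the other 5 had 0.945 to 0.989, given as a description. Its values followed the GC content of transcripts. The 2335 genes in the fifth of highest GC content (at least 55.7%) stood at a median of 0.97 log2 above their mean over libraries in KO replicate 1, against -0.27 to -0.05 in the other 5. Those in the fifth of lowest GC content stood at -0.96 there, against 0.12 to 0.29. Since 9 of the 10 members have a GC content of 51.0% to 57.3% and B2m has 41.2%, the fold changes of members and the list medians are given with and without that library. Srsf1 itself measured 1214, 1230 and 755 CPM (counts scaled to library size) across the WT libraries and 438, 812 and 787 across the KO libraries, with an overlap because WT replicate 3 lay below KO replicates 2 and 3. Its log2 fold change was -0.65 (SE 0.32, edgeR adjusted p = 0.682, n = 3 per group).

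Class I transcripts ranged widely in level. By FPKM, which corrects for transcript length and allows genes to be set against each other, B2m led in WT at 1940.0 ± 463 (SD, n = 3), followed by H2-K1 at 338 ± 38.7 and H2-D1 at 278 ± 41.0. The nonclassical chain H2-T23, which forms Qa-1 and presents leader peptides of other class I chains, stood at 73.8 ± 12.7 FPKM. Tapbp at 42.9 ± 8.82 and Tap1 at 41.8 ± 8.58 FPKM came next, then Tap2 at 24.9 ± 5.56 and H2-Q4 at 22.1 ± 2.26. H2-M3, which presents formylated peptides, stood at 8.05 ± 2.06 FPKM and Nlrc5 at 7.70 ± 1.12. The WT ranges of neighbours overlapped for H2-K1 and H2-D1, Tapbp and Tap1, Tap2 and H2-Q4, and H2-M3 and Nlrc5, and were separate for the other neighbours. Within libraries H2-K1 still lay above H2-D1 in 3 of 3 WT and 3 of 3 KO libraries. By counts their WT means were further apart, at 672 CPM for H2-K1 and 210 CPM for H2-D1. The GENCODE transcript of H2-D1 is the longer, at 2102 bases against 1619. How near H2-D1 comes to H2-K1 therefore rests on the FPKM values, and the cause of the mismatch was not tested. In KO the order of mean FPKM was that of WT except that Nlrc5, at 11.8 ± 3.53, lay above H2-M3, at 8.03 ± 4.01.

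**Figure D1:**
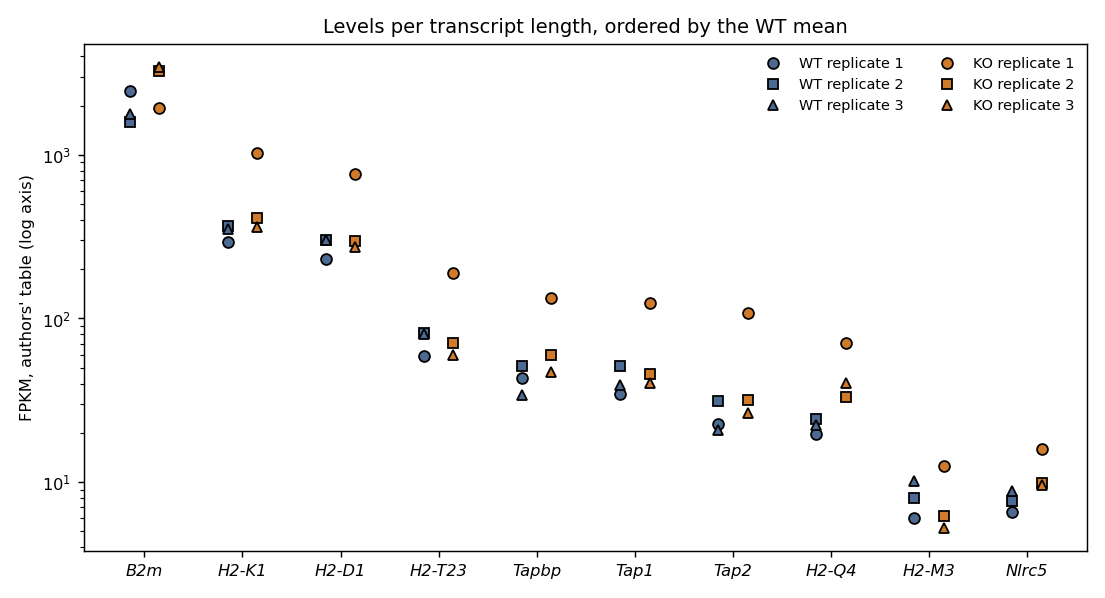
FPKM of the 10 class I genes (log axis) in each of the 6 libraries, in the order of their WT means. B2m lies highest, with WT values of 1577 to 2461 FPKM, and Nlrc5 and H2-M3 lie lowest.

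Class I genes were mostly higher on average in KO cells, and for most of them that difference sat in KO replicate 1. The log2 fold change (KO minus WT) was above 0 for 9 of 10 members, with a median of 0.61, against 51.6% of all tested genes and a median of 0.019. By edgeR's quasi-likelihood test with Benjamini-Hochberg adjustment 0 of 10 members passed the threshold of 0.05, where 0.017% of all tested genes did, and 3 members (H2-Q4, Tapbp and Nlrc5) had an unadjusted p below 0.05, all 3 higher in KO, where 4.75% of tested genes were higher and 2.76% lower at that level. All KO libraries lay above all WT libraries for 3 members, H2-K1, H2-Q4 and Nlrc5, against 7.48% of tested genes, and all lay below for 0 members, against 8.18%. The DESeq2 Wald test called 1 member higher in KO, H2-Q4, against 0.799% of tested genes. KO replicate 1 was the highest of the 6 libraries for 9 of 10 members. Without it, 8 of 10 members were above 0, with a median of 0.24, against 46.4% and a median of -0.028 for all tested genes. KO replicates 2 and 3 both lay above every WT library for 4 members, H2-K1, H2-Q4, B2m and Nlrc5, against 13.4% of tested genes. In bulk RNA, fewer cells of a type and less RNA per cell cannot be told apart.

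**Figure D2:**
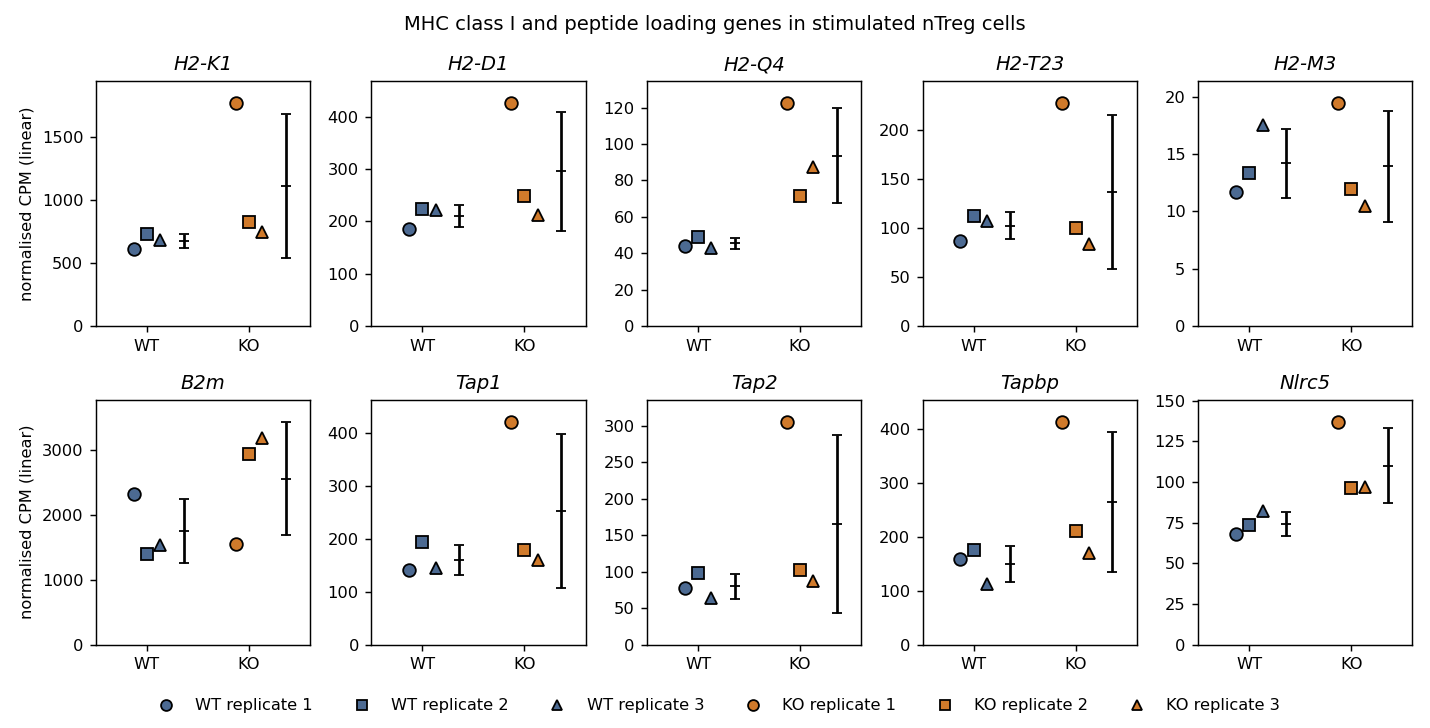
TMM-normalized CPM of each class I gene in the 3 WT and 3 KO libraries, 1 point per library, with bars for the mean ± SD of each group. KO replicate 1 is the highest point for every member except B2m, for which KO replicates 2 and 3 are highest at 2938 and 3179.7 CPM.

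Among heavy chains, H2-Q4 kept most of its difference when KO replicate 1 was left out. H2-Q4 is a nonclassical chain of the Qa region. It measured 44.1, 49.0 and 43.1 CPM across the WT libraries and 122, 71.2 and 87.2 across the KO libraries. All 3 KO libraries lay above the WT libraries, the lowest of them by more than the whole WT range. Means were 45.4 ± 3.17 and 93.6 ± 26.2 CPM (SD, n = 3 each), a log2 fold change of 1.04 (SE 0.26) with an edgeR adjusted p of 0.371. H2-Q4 ranked 95 of 11772 by p, and DESeq2 gave it an adjusted p of 0.0315. Without KO replicate 1 its log2 fold change was 0.80 (SE 0.16, edgeR adjusted p = 0.211). The exact permutation test gave p = 0.1, the smallest that 3 against 3 libraries allow.

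The classical chains H2-K1 and H2-D1 carry most peptides to the surface. H2-K1 measured 614, 726 and 678 CPM across the WT libraries and 1764, 826 and 741 across the KO libraries. The KO libraries lay above the WT libraries, but KO replicate 3 was only just above the highest of them. The log2 fold change of H2-K1 was 0.72 (SE 0.35, edgeR adjusted p = 0.676), and 0.22 (SE 0.16) without KO replicate 1. By FPKM the groups of H2-K1 overlapped, with KO replicate 3 at 361 below WT replicate 2 at 367. H2-D1 measured 185, 223 and 221 CPM across the WT libraries and 426, 248 and 213 across the KO libraries. Its groups overlapped, since KO replicate 3 lay below WT replicates 2 and 3. Its log2 fold change was 0.50 (SE 0.30, edgeR adjusted p = 0.724), and 0.13 without KO replicate 1.

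The remaining heavy chains did not hold one direction. H2-T23 measured 86.8, 112 and 108 CPM across the WT libraries and 227, 99.8 and 84.0 across the KO libraries. KO replicate 1 was the highest library for it and KO replicate 3 the lowest. Its log2 fold change of 0.42 (SE 0.38, edgeR adjusted p = 0.774) became -0.15 without KO replicate 1. H2-M3, the least abundant heavy chain with 104 to 489 counts per library, measured 11.7, 13.4 and 17.5 CPM across the WT libraries and 19.4, 11.9 and 10.4 across the KO libraries. The groups overlapped across most of their range, with a log2 fold change of -0.023 (SE 0.34, edgeR adjusted p = 0.984). It was -0.34 without KO replicate 1, and turned above 0 when WT replicate 3 (0.14), KO replicate 2 (0.08) or KO replicate 3 (0.12) was left out. Heavy chain genes are related in sequence. The share of 75-base windows of the GENCODE transcripts that also occur in another gene was 13.1% for H2-T23, 7.91% for H2-Q4, 6.90% for H2-D1, 1.55% for H2-K1 and 0 for H2-M3. The sources used here do not say how such reads were counted, and the values of the first 4 are therefore uncertain. Of the other members, Tapbp shares 0.99% of its windows and B2m, Tap1, Tap2 and Nlrc5 share 0.

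B2m, the light chain that every class I heavy chain needs to leave the endoplasmic reticulum, had another pattern than the other members. It measured 2313, 1392 and 1531 CPM across the WT libraries and 1556, 2938 and 3179.7 across the KO libraries. KO replicates 2 and 3 lay above all WT libraries, and KO replicate 1 lay among them. Group means were 1746 ± 496 and 2558 ± 876 CPM (SD, n = 3 each), a log2 fold change of 0.55 (SE 0.34, edgeR adjusted p = 0.724). Without KO replicate 1 it was 0.81 (SE 0.24, edgeR adjusted p = 0.341), and without KO replicate 3 it was 0.36. Leaving out 1 library at a time gave 0.36 to 0.81. Leaving KO replicate 1 out raised the fold change of B2m and lowered that of each of the other 9 members.

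The transporter subunits and Tapbp were highest in KO replicate 1. In KO replicate 2 Tap2 and Tapbp also lay above every WT library, and KO replicate 3 lay within the WT range for Tap1, Tap2 and Tapbp. Tap2 measured 77.2, 98.1 and 64.1 CPM across the WT libraries and 305, 103 and 87.6 across the KO libraries, a log2 fold change of 1.05 (SE 0.47, edgeR adjusted p = 0.662) that was 0.25 without KO replicate 1. Its groups overlapped, with KO replicate 3 below WT replicate 2. Tap1 measured 142, 193 and 145 CPM across the WT libraries and 421, 178 and 159.9 across the KO libraries. KO replicates 2 and 3 of Tap1 both lay below WT replicate 2, and the log2 fold change of 0.66 (SE 0.38, edgeR adjusted p = 0.716) was 0.08 without KO replicate 1. Tapbp measured 159, 175 and 113 CPM across the WT libraries and 412, 211 and 169 across the KO libraries. Only KO replicate 3 of Tapbp overlapped with WT, and the log2 fold change was 0.83 (SE 0.36, edgeR adjusted p = 0.660), or 0.35 without KO replicate 1.

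Nlrc5, the transactivator of class I genes, had a small difference with no overlap between groups. It measured 67.6, 73.2 and 82.2 CPM across the WT libraries and 137, 96.3 and 96.9 across the KO libraries. The lowest KO library lay above the highest WT library. Its log2 fold change was 0.57 (SE 0.23, edgeR adjusted p = 0.651), and 0.38 without KO replicate 1. The exact permutation test again gave the smallest possible p of 0.1.

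**Figure D3:**
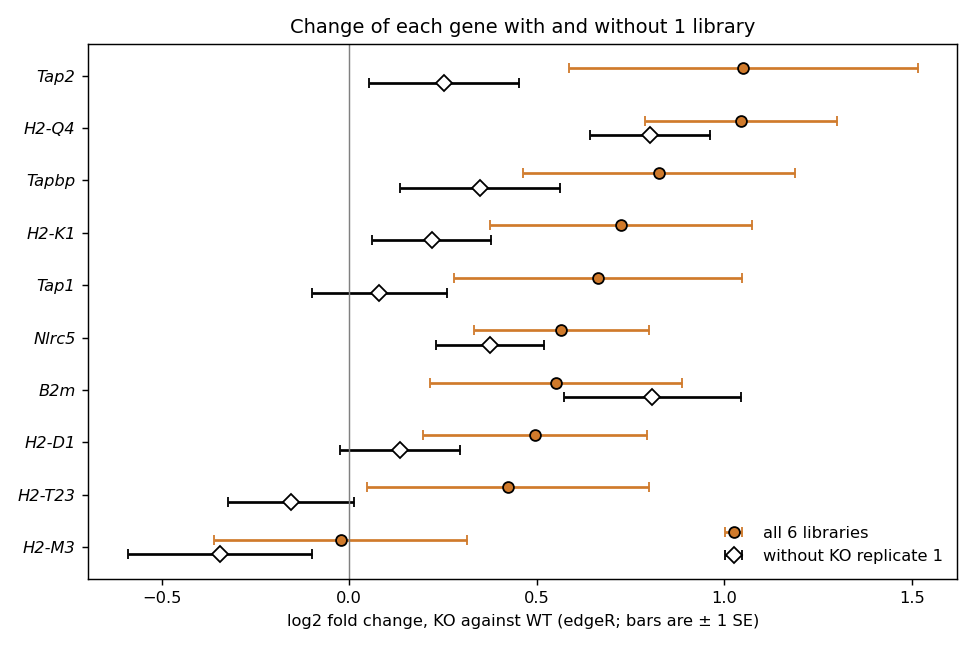
Log2 fold change (KO minus WT) of each class I gene with bars of ± 1 SE, from all 6 libraries and without KO replicate 1. H2-Q4 stands at 1.04 and 0.80 and B2m at 0.55 and 0.81, while H2-T23 crosses 0, from 0.42 to -0.15.

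Set against the median of genes of like GC content, members stood higher in KO in most cases. Tested genes were divided into 10 bins of equal size by GC content, and each member's log2 difference from the WT mean was set beside the median of its bin. Members lay above that median for 10 of 10 in KO replicate 1, 9 of 10 in KO replicate 2 and 8 of 10 in KO replicate 3, and for 8 of 10 in all 3, the exceptions being H2-T23 and H2-M3. By the definition of a median, as many genes of a bin lie above it as below it in each library. The share of all tested genes above their bin's median in all 3 was not taken, so the count over all 3 has no background. B2m, in the bin of lowest GC content, stood at -0.13 in KO replicate 1 where its bin stood at -1.35, and at 0.79 and 0.90 in KO replicates 2 and 3 where its bin stood at 0.033 and 0.026. H2-Q4 stood at 1.43, 0.65 and 0.94 in KO replicates 1, 2 and 3, against 0.93, -0.079 and -0.052 for its bin. After a correction for GC content and length, added after the data were seen, the log2 fold changes were 0.92 for B2m (edgeR adjusted p = 0.0955), 0.82 for H2-Q4 (0.080) and 0.40 for H2-K1, with a median of 0.39 over the members. No member was called in that fit.

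**Figure D4:**
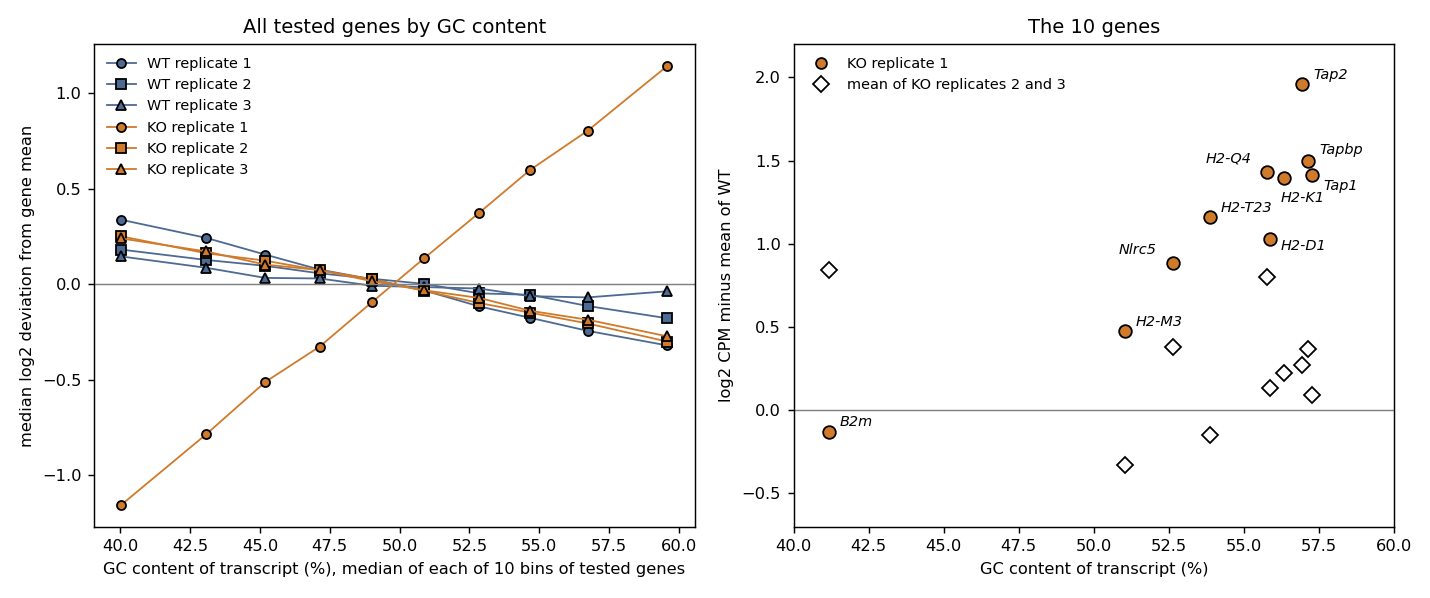
Left, median log2 deviation from the gene mean for tested genes in 10 bins of GC content, 1 line per library; right, log2 CPM of each class I gene minus its WT mean against its GC content, in KO replicate 1 (circles) and as the mean of KO replicates 2 and 3 (diamonds). The line of KO replicate 1 rises with GC content, and B2m lies at 41.2% GC while the other 9 members lie between 51.0% and 57.3%.

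Proportions between members were taken from FPKM. Over 8 ratios and shares compared, 3 had no overlap between groups. H2-K1 stood at 1.27, 1.21 and 1.17 times H2-D1 in WT and 1.33, 1.38 and 1.33 times in KO. H2-Q4 made up 3.23%, 3.09% and 2.91% of the summed 5 heavy chains in WT and 3.42%, 4.08% and 5.47% in KO. The KO libraries were higher in each of these, with the smallest exact permutation p of 0.1, adjusted over the 8 to 0.267. The 5 heavy chains summed to 0.248, 0.497 and 0.431 times B2m in WT and 1.07, 0.252 and 0.215 times in KO. KO replicate 1 thus had more heavy chain than B2m transcript by this measure, and it was the only library that did. In KO replicate 1 the GC bin that holds H2-K1, H2-D1 and H2-Q4 stood at 0.93 log2 from the WT mean. The bin of B2m stood at -1.35 there. The part of GC content in this ratio was not tested. FPKM per CPM of H2-D1 was 1.80 in that library, against 1.20 to 1.36 in the other 5. For H2-K1 it was 0.48 to 0.58 over the 6 libraries. FPKM and counts thus place H2-D1 differently beside H2-K1 in every library, and most so in KO replicate 1. The ratios and shares that hold H2-D1 depend on this. Over the 36 pairs of members other than B2m the median r across 6 libraries was 0.84 (0.18 to 0.99). Without KO replicate 1 it was 0.44 (-0.75 to 0.95), with some pairs varying in opposite directions. The 9 pairs with B2m had a median r of -0.27 (-0.79 to 0.22) over 6 libraries, and 0.34 (-0.80 to 0.80) without KO replicate 1.

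Genes that work around the members were set beside them as lists. By edgeR 0 genes of these lists were called, and the unadjusted p and DESeq2 counts are given for each list where they are not 0. Of 10 chaperone and trimming genes of the endoplasmic reticulum and cytosol, 4 lay above 0, with a median of -0.06, and 6 lay above 0, with a median of 0.013, without KO replicate 1. Tapbpl, a tapasin relative that edits peptides, stood at 0.45, the chaperone Calr at 0.29 and the aminopeptidase Npepps at -0.45. Without KO replicate 1 Tapbpl stood at 0.019, Calr at 0.41 and Npepps at -0.28. All 3 KO libraries lay below WT for 1 of the 10, Npepps, and above for 0, against 8.18% and 7.48% of tested genes. For the immunoproteasome and its PA28 activator, 4 of 5 lay above 0, with a median of 0.45, but the median was -0.04 without KO replicate 1. Psmb8, Psmb9 and Psmb10, the inducible catalytic subunits, stood at 0.45, 0.63 and 0.83 with all libraries and at -0.08, -0.01 and -0.28 without it. The 3 constitutive subunits had a median of 0.36 with all libraries and -0.27 without it.

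Factors that act on class I promoters gave a like picture. Of 13 tested, 10 lay above 0, with a median of 0.18 (0.014 without KO replicate 1), and 1 had an unadjusted p below 0.05. Rela, the NF-kappa B subunit, stood at 0.95 with all KO libraries above WT, Irf1, an interferon response factor, at 0.63 with overlap, and Nfyb, a subunit of the CCAAT-binding factor, at -0.60 with all KO libraries below WT. Without KO replicate 1 Rela stood at 0.40, Irf1 at 0.39 and Nfyb at -0.39. Of the 13, 2 had all KO libraries above WT and 1 had all below, against 7.48% and 8.18% of tested genes. In the interferon pathway, 9 of 13 tested lay above 0, with a median of 0.17 (-0.0052 without KO replicate 1), and 1 had an unadjusted p below 0.05. Irf7, a regulator of interferon genes present at 0.47 to 4.43 CPM, stood at 1.71, and Irf9, a part of the ISGF3 complex, at 0.52, both with no overlap. They stood at 1.12 and 0.35 without KO replicate 1. In this list all KO libraries lay above WT for 2 genes and below for 1, against 7.48% and 8.18% of tested genes. Socs1, an inhibitor of cytokine signalling, went from 1.38 to -0.05 when KO replicate 1 was left out.

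Interferon-stimulated genes lay mostly above 0 with and without that library. Of 33 tested, 28 lay above 0, with a median of 0.54, and 28 lay above 0 with a median of 0.45 without KO replicate 1. All KO libraries lay above WT for 8 and below for 1 of them, against 7.48% and 8.18% of tested genes. The unadjusted edgeR p was below 0.05 for 9 higher and 1 lower, and DESeq2 called 5 higher (Isg20, Oasl2, Gbp3, Gbp5 and Zbp1) and 1 lower (Ifit1). Over all genes these shares were 4.75% and 2.76% by unadjusted p and 0.799% and 0.298% by DESeq2. Zbp1, a nucleic acid sensor, measured 29.0, 32.2 and 18.7 CPM across the WT libraries and 56.7, 61.0 and 57.3 across the KO libraries (log2 fold change 1.13). Oasl2, at 0.21 to 2.47 CPM, stood at 2.60, and Ifit1, a sensor of viral RNA at 0.78 to 4.39 CPM, lay the other way at -1.76. Zbp1 stood at 1.15, Oasl2 at 2.36 and Ifit1 at -1.55 without KO replicate 1. MHC class II genes, which present peptides from outside the cell, lay above 0 for 6 of 9 tested, with a median of 0.62 (0.21 without KO replicate 1). H2-Aa stood at 2.76, Cd74 at 1.72 and H2-Eb1 at 1.70, and H2-Aa reached at most 6.72 CPM. Without KO replicate 1 H2-Aa stood at 2.67, Cd74 at 1.09 and H2-Eb1 at 1.43. These were among the 4 of 9 with all KO libraries above WT, against 7.48% of tested genes. The unadjusted edgeR p was below 0.05 for 4, and DESeq2 called H2-Aa and H2-Eb1 higher. The 3 class II genes below 0 were H2-Ab1 at -0.39, H2-Ob at -0.44 and H2-DMb2 at -0.08, all with overlap. Without KO replicate 1 they stood at -0.62, -0.49 and -0.23. H2-Ab1 was highest in WT replicate 3, at 23.5 CPM. Listed markers of macrophages, monocytes and dendritic cells, cells that express class II genes, summed to 3.93 to 8.14 CPM in WT and 14.1 to 20.6 in KO, with 3 of 13 tested and 0 called by edgeR. That sum was made up mostly of Fcer1g, Cd68 and Zbtb46, whereas Csf1r, Lyz2 and C1qa had 0 counts in all libraries. Of 27 other class I heavy chain genes, 8 could be tested, 4 of them above 0, with a median of 0.07 (0.0053 without KO replicate 1), and 10 had no count in any library. Of the 8, 1 higher and 1 lower had an unadjusted p below 0.05. All KO libraries lay above WT for 3 of the 8, against 7.48% of tested genes. These were H2-Q5 at 1.19, Cd1d1, which presents lipids, at 0.74 and H2-T24 at 0.31. Without KO replicate 1 they stood at 0.85, 0.74 and 0.32. By FPKM the groups of Cd1d1 and H2-T24 again had no overlap. Those of H2-Q5 overlapped, with KO replicates 2 and 3 at 8.01 and 5.28 below WT replicate 3 at 8.32. Of the 75-base windows of H2-Q5, 20.7% also occur in another gene.

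**Figure D5:**
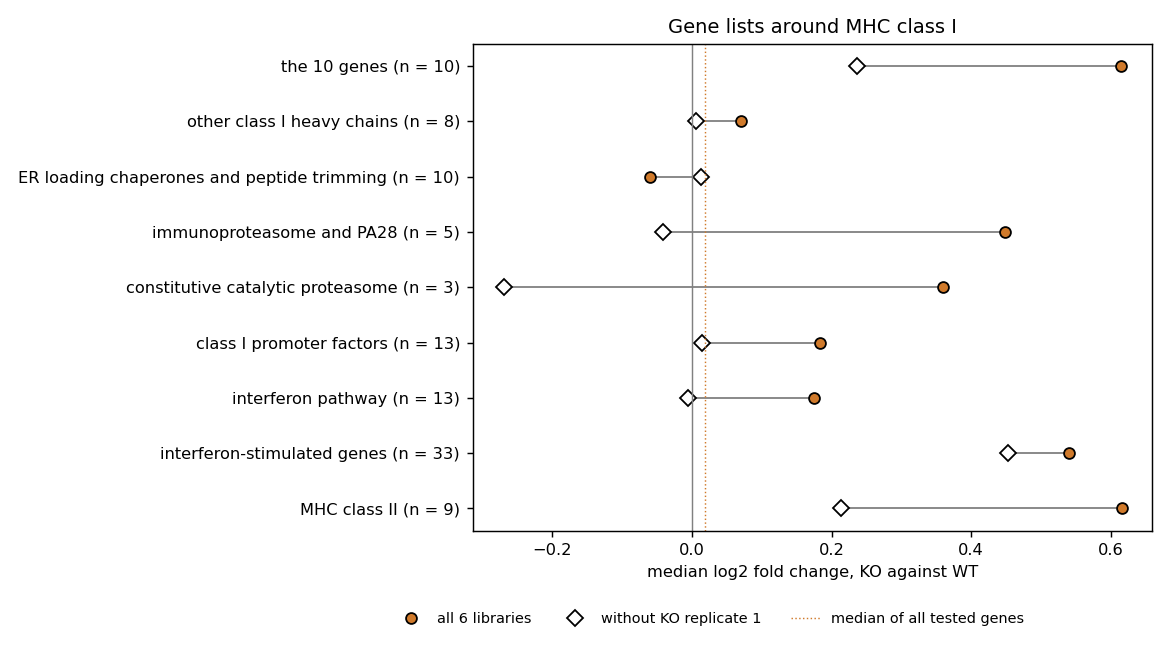
Median log2 fold change (KO minus WT) of the class I genes and of the lists around them: each list's median over its tested genes, with all 6 libraries (circles) and without KO replicate 1 (diamonds), and a dotted line at the median of all tested genes. The median with all libraries is 0.61 for the members, 0.54 for interferon-stimulated genes and -0.06 for loading chaperones and trimming genes.

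Markers of other cells were read for the same libraries, since B cells and antigen-presenting cells carry class I and class II molecules. Of the 7 markers listed for regulatory CD4 T cells all were tested, and their summed level was 5509 to 8611 CPM across the WT libraries and 5404 to 9166 in KO, a sum made up mostly of Il2ra. All KO libraries lay above WT for 4 of the 7, against 7.48% of tested genes. These were Foxp3 at a log2 fold change of 1.68, Ikzf2 at 0.91, Cd4 at 0.70 and Cd3e at 0.68. Each of these had an unadjusted edgeR p below 0.05. The groups overlapped for Tnfrsf18 at 0.30, Il2ra at -0.09 and Ctla4 at -0.79. Without KO replicate 1 Tnfrsf18 stood at -0.19, Il2ra at 0.14 and Ctla4 at -0.52. The list median was 0.68 (0.70 without KO replicate 1), edgeR called 0 and DESeq2 called Foxp3 higher. The CD8 genes summed to 193 to 269 CPM across the WT libraries and 38.9 to 60.5 in KO, and Cd8b1 fell in KO by edgeR (log2 fold change -2.68, adjusted p = 0.0166). Markers of B cells, 1 of 6 tested, summed to 2.67 to 4.41 CPM in WT and 0.80 to 4.8 in KO. That sum was made up mostly of Cd79b, the 1 tested, at a log2 fold change of -0.25 with overlap. Ms4a1 had no more than 4 counts and Cd79a no more than 3 in any library. For the macrophage, monocyte and dendritic cell markers, 3 of 13 in the table could be tested (Fcer1g, Cd68 and Zbtb46), with Csf1r, Lyz2 and C1qa at 0 in all libraries. Fcer1g stood at 2.59 and Cd68 at 1.15, neither called by edgeR, and DESeq2 called Fcer1g. NK markers, 4 of 6 tested, summed to 15.9 to 21.4 CPM across the WT libraries and 24.3 to 50.5 in KO, with Klra8 at 0. That sum was made up mostly of Eomes, for which the groups overlapped. All KO libraries lay above WT for 2 of the 4, Klrb1b and Klrb1c, against 7.48% of tested genes. The unadjusted edgeR p was below 0.05 for 3, all higher, against 4.75% of tested genes, and edgeR and DESeq2 called 0. The part of these markers in the class I and class II values was not tested.

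The genes whose levels followed the members most closely over the 6 libraries were picked by the correlation of their log2 CPM with the mean of the members' log2 CPM. The 8 highest of 9976 candidates were Hcfc1, B3galt4, Opa3, Zfp142, Slc38a10, Lfng, Ccm2 and Mkl1, with r from 0.993 to 0.997, and from 0.939 to 0.979 without KO replicate 1. All 8 were highest in KO replicate 1, and the 7 with a value had a GC content of 53.7% to 58.9%. In all, 968 genes reached r above 0.9 over these 6 points, so the 8 stand at the top of a long list. Hcfc1, a transcriptional coregulator, measured 366, 408 and 372 CPM across the WT libraries and 682, 458 and 414 across the KO libraries. Lfng, which modifies Notch receptors, measured 28.7, 41.0 and 28.3 CPM across the WT libraries and 144, 46.9 and 43.5 across the KO libraries.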

How the data were processed

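RNA was measured in 3 WT and 3 KO libraries of stimulated mouse nTreg cells, grouped by sample title. The series' design text gives stranded mRNA libraries, single ends of 75 bases and the VIPER pipeline. The aligner was STAR 2.4.2a, per the file headers, and the genome build mm9, per the submitters' processing notes. How reads were counted, with which strand setting and annotation, is not given in the sources used here. Overlapping or antisense genes can therefore not be separated. Counts per symbol were deposited as whole numbers with no normalization. The FPKM values deposited by the authors are scaled for length and depth, and the alignment report deposited by the authors holds other values, read totals and percent of reads.

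The fit used edgeR 4.0.16 under R 4.3.3: TMM scaling, filterByExpr (minimum count 10), the quasi-likelihood test and Benjamini-Hochberg adjustment over 11772 genes, with a threshold of 0.05. Standard errors came from the F statistic. The script was tested on simulated data. Alternatives used DESeq2 1.42.0 and limma 3.58.1, other scalings and filters, libraries left out, and log2(FPKM + 1) or log2(FPKM + 0.1). With 10183626 to 27562046 counts per library, 3 counts equal 0.109 to 0.295 CPM before normalization. No replicates were duplicates (chi-square per degree of freedom 22.05 to 231.2 within groups). Date-like names in 26 rows, with 0.271% of counts, stayed in library sizes and are not named. Of the symbols, 24464 matched the reference. GC content, length and shared windows came from GENCODE M21 and promoters from RefSeq, both on GRCm38 and never joined to mm9 coordinates.

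Named genes are the members, up to 3 genes with the smallest p of each other list, the markers as lists and the 8 genes most like the members. Isg20, Gbp3, Gbp5, H2-T24, H2-Ab1, H2-Ob and H2-DMb2 were named after their values were seen. One listed marker is not reported here. The members and lists were chosen with earlier results of these data known.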

Additional observations from a re-analysis of the deposited data

Results flagged for a closer look

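Among class I heavy chain genes with FPKM values but too few counts to test, 6 had 1 KO library at over 2 times the highest WT library. The H2-Q1 FPKM in KO replicate 1 was 9.19, against 1.24 to 3.25 in WT. H2-Q7 stood at 90.5 FPKM in KO replicate 1 against 13.1 to 19.2 in WT, and H2-Q8 at 62.8 against 2.4 to 5.45. H2-L stood at 48.5 FPKM in KO replicate 1 and at or near 0 in the other 5 libraries, and H2-Bl at 1.75 against 0.34 to 0.65 in WT. H2-T9 stood at 3.53 FPKM in KO replicate 2 and at most 0.0033 in WT. In the count table these genes held at most 5 counts in any library, so no value here has a counterpart there. Others went another way or less far: H2-Q6 stood at 0.0021 FPKM in KO replicate 1 against 4.21 to 13.0 in WT, and H2-Q9 at 53.7 against 11.9 to 31.7. Of 1449 windows of 75 bases in H2-Q7, 21.7% also occur in another gene.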

How the results depend on the processing

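No member changed side of the threshold except H2-Q4. H2-Q4 kept its direction in 24 of 24 alternatives, between 0.79 and 1.20, and was called in 2, DESeq2 (adjusted p = 0.0315) and voom with quality weights (0.0243). Over its alternatives its adjusted p ran from 0.0243 to 0.999. H2-T23 turned below 0 with voom quality weights (-0.048), without KO replicate 1 (-0.15; leaving out 1 library at a time gave -0.15 to 0.64), with 2 against 2 libraries (-0.095, KO replicate 1 and WT replicate 3 left out) and with GC correction without KO replicate 1 (-0.049). H2-M3 turned above 0 with upper quartile scaling (0.023), with library size scaling (0.038) and without WT replicate 3 (0.14), KO replicate 2 (0.08) or KO replicate 3 (0.12), with -0.34 to 0.14 over the libraries left out. The other 7 members kept their direction in 24 of 24. Of all tested genes 0 were called higher and 2 lower in KO. Higher and lower counts were 94 and 35 with DESeq2, 158 and 71 with quality weights, 64 and 16 with 2 against 2 libraries, and 10 and 5 with the GC and length correction, which gave 1 higher gene without KO replicate 1. Without a filter 3 genes were called higher. Voom and equal depth called 1 lower gene each, and the sex covariate and the unfiltered FPKM fits 0 lower. Sex was read for each library from its counts of Xist against those of Y-linked genes, and it differed among the libraries. Leaving out 1 library gave 0 to 1 higher and 0 to 2 lower. With the replicate number as a block, 1 gene was higher and 0 lower. Same-numbered libraries deviated with correlations of -0.36, 0.15 and 0.14, and 1 of 6 libraries correlated best with its own number. With 3 libraries per group these values cannot decide whether the numbers pair the samples. The GC corrections and equal depth were added after the data were seen. The causes were not tested.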

Other observations

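H2-Q10, a class I chain best known from liver, held 693 counts in WT replicate 3, or 24.9 CPM, against 0.27 to 1.70 CPM in the other 5 libraries, and its log2 fold change (KO minus WT) was -3.56 (edgeR adjusted p = 0.660). Its FPKM was 16.3 in that library and 1.04 to 5.0 elsewhere.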
